A study of Mus musculus with 8 samples.

Results

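The IL-1, TNF and NF-kB response was followed through 10 genes that were taken by name: the ligands *Il1a*, *Il1b*, *Il33* and *Tnf*, the antagonist *Il1rn*, the receptor *Il1r1*, the feedback inhibitors *Nfkbia* and *Tnfaip3*, and the effectors *Ptgs2* and *Icam1*. All 10 were found among the 54532 genes of the deposited table, and all 10 passed the filter for testing (0.5 FPKM or more in 2 or more libraries). FPKM are fragments scaled by gene length and library size, so that levels of different genes can be set side by side. The order of genes then depends on the length given for each gene. The cells were MICFs, primary cardiac fibroblasts from infarcted mouse hearts, with the genotype MGTMyoS overexpression. They carried tetracycline-inducible lentiviral vectors for *Mef2c*, *Gata4* and *Tbx5* in one construct, for *Myocd* and *Sall4*, and for eGFP. The study asked how the same cells behave in the injured heart and in a dish. eGFP+ cells were sorted from C57BL/6 hearts that had received the MICFs at coronary ligation (*in vivo* samples), or from the continued culture (*in vitro* samples), at 1 week and 2 weeks, with 2 libraries in each of the 4 groups.

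Doxycycline was given in all 4 groups. Only the host mice received daily tacrolimus, mycophenolate mofetil and methylprednisolone, the last a glucocorticoid, and only the *in vivo* cells were released from tissue by digestion before the sort. The study's *in vitro* reprogramming medium held SB431542, an inhibitor of the TGF-β type I receptor, and baricitinib, an inhibitor of Janus kinases. Site, drugs and cell release therefore cannot be told apart whenever the 2 settings are compared. Which animals or wells the replicates came from is not stated, so p-values measure the spread between these libraries, which may be technical.

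IL-1 and TNF are cytokines of the early innate response, made largely by macrophages, and their receptors activate the kinase complex that releases NF-kB from its inhibitor IkBα. NF-kB then switches on cytokines, adhesion molecules and prostaglandin synthesis, together with its own inhibitors, which close the loop. In the infarcted heart this pathway is known for the first inflammatory phase, and cardiac fibroblasts both answer IL-1 and, as stromal cells, store IL-33, an alarmin of the IL-1 family. Glucocorticoids are known to repress many NF-kB targets.

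The cell type labels were checked first. The summed FPKM of 10 fibroblast markers lay between 10246 and 13336 in the *in vivo* libraries and between 2174 and 3305 in the *in vitro* libraries. The label of fibroblasts did not cover all the RNA: the sum of 15 macrophage and monocyte markers was 2979 to 3453 *in vivo* and 5669 to 6440 *in vitro* at 1 week, and 2148 to 2591 and 5356 to 6574 at 2 weeks. RNA of macrophage marker genes was thus present in all 8 libraries, cultured ones included. By staining, the study had itself found macrophages and a small share of endothelial cells among isolated MICFs. Of the defining markers, *Adgre1* (F4/80) read 43.2 to 134 FPKM in the 8 libraries. The monocyte markers read higher in the heart. *Ccr2* read 2.24 to 6.23 FPKM *in vivo* and at most 0.0792 *in vitro*, with 0 in both *in vitro* libraries at 2 weeks. *Ly6c2* read 0.0991 to 0.686 FPKM *in vivo* and 0 in every *in vitro* library. Of these 15 genes, 2 were higher and 1 was lower *in vivo* at 1 week by the test described below, and 1 was higher and 8 were lower at 2 weeks. *Fcgr1* was among the higher genes of 1 week, by 2.61 log2 units (SE 0.20). Endothelial markers (7 genes) summed to 66.0 to 82.4 *in vivo* and 20.1 to 47.8 *in vitro*, and cardiomyocyte markers (6 genes) to 9.81 to 22.4 and 111 to 630. Mesothelial markers (6 genes) summed to 13.1 to 31.1 *in vivo* and 234 to 487 *in vitro*. Neutrophil markers (7 genes) were low, with sums of 3.33 to 9.57 *in vivo* and 2.49 to 3.69 *in vitro*. Their sum was 2.70-fold higher *in vivo* at 1 week and 2.15-fold at 2 weeks. *Ly6g* was at 0 in all 8 libraries, whereas *S100a9* was at 0 in every *in vitro* library and read 0.347 to 3.39 *in vivo*. Lymphocyte markers (7 genes) stayed at 2.23 or less. In such bulk samples fewer cells of a type and less RNA per cell cannot be told apart.

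**Figure D1:**
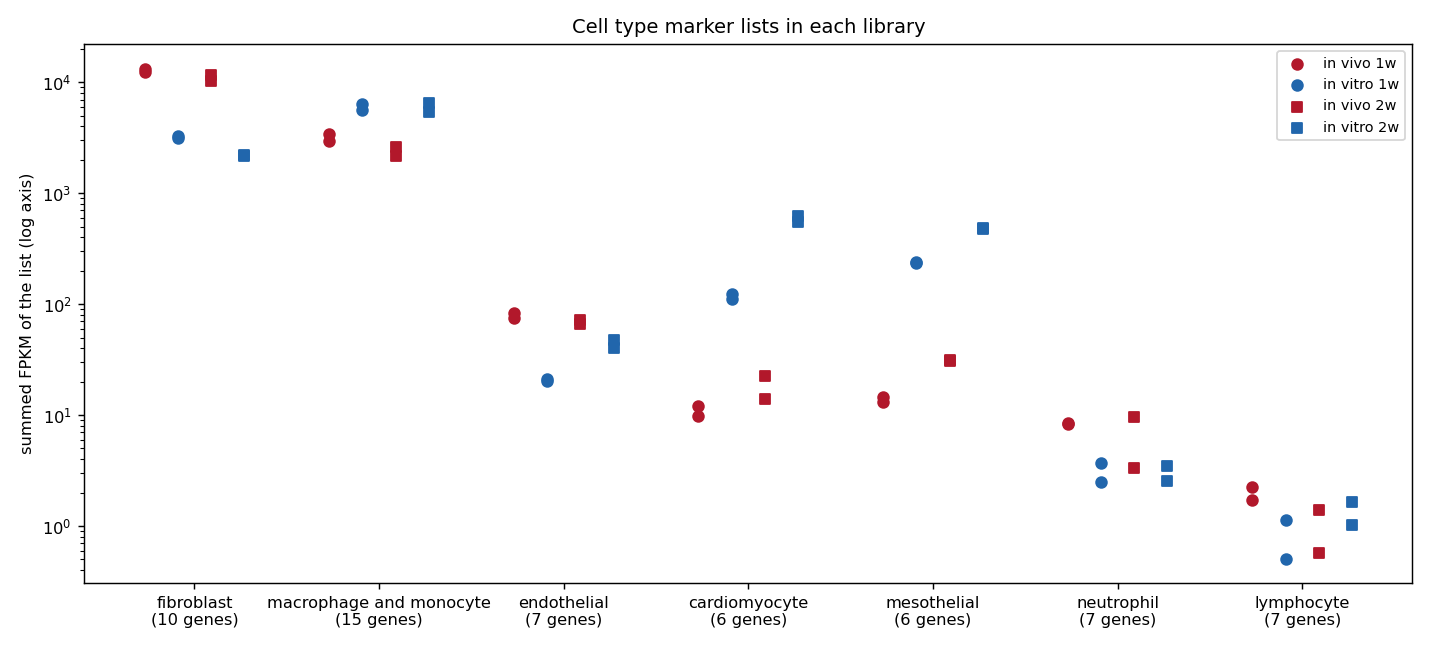
Summed FPKM of each marker list (log axis) in the 8 libraries, 2 points per group, with *in vivo* samples in red, *in vitro* samples in blue, circles for 1 week and squares for 2 weeks. The macrophage and monocyte sums of the *in vitro* libraries (5356 to 6574) lie above those of the *in vivo* libraries (2148 to 3453), and the fibroblast sums show the opposite order.

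Between 12304242 and 14546904 fragments were counted on genes per library, and the fewest fragments on any of the 10 genes in any library were 41, on *Il1a*. Groups were compared on log2(FPKM + 0.1) with limma over 15708 tested genes, and changed genes are those whose adjusted p (Benjamini-Hochberg) was under 0.01 and whose absolute log2 fold change was over 1. Fold changes on this scale understate the change of low genes.

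At 1 week 4 of the 10 genes were higher *in vivo* and 0 were lower, where 7.79% of all tested genes were higher, 5.07% were lower and 12.9% changed in either direction. The 4 were *Il33*, *Nfkbia*, *Tnfaip3* and *Ptgs2*. At 2 weeks 1 gene was higher, *Il33*, and 3 were lower, *Tnf*, *Il1rn* and *Il1b*, against 9.02% and 8.05% of all tested genes and 17.1% in either direction. The median log2 fold change of the 10 genes was 0.81 at 1 week and 0.07 at 2 weeks, and that of all tested genes -0.0058 and -0.0034. Without the scaling between libraries that the FPKM include, the median of all genes became -0.34 at 1 week and -0.33 at 2 weeks, and of the changed genes 36.7% and 32.9% read higher *in vivo* in place of 60.6% and 52.8%. The fold changes given here are relative to the scaled median. The 10 genes and all lists were chosen with earlier results of these data known. The shares of all tested genes therefore give scale and no independent support.

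**Figure D2:**
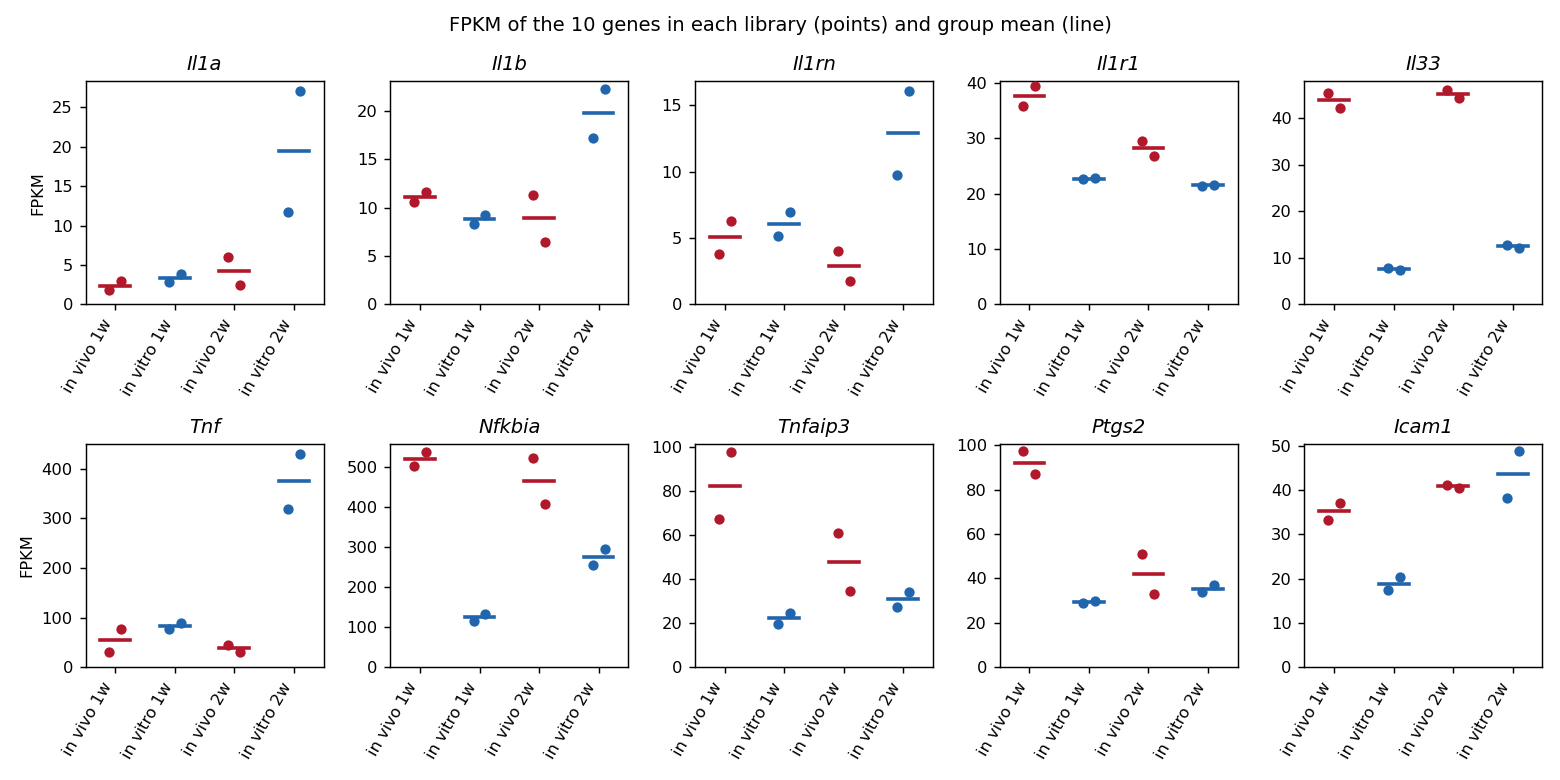
FPKM of the 10 genes (linear axes from 0, 1 panel per gene) in each library, with points for libraries and a line for the mean of 2 libraries, *in vivo* samples in red and *in vitro* samples in blue. *Tnf* reads 319 and 431 in the *in vitro* samples at 2 weeks and at most 89.1 elsewhere, whereas *Il33* and *Nfkbia* read higher in every *in vivo* library than in any *in vitro* library.

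Of the ligands, *Tnf* (ENSMUSG00000024401, chromosome 17, 35199381 to 35202007 on GRCm38) encodes the cytokine that gives the TNF family its name. It read 31.6 and 77.4 FPKM *in vivo* and 78.0 and 89.1 *in vitro* at 1 week. At 2 weeks it read 45.2 and 31.2 *in vivo* and 319 and 431 *in vitro*. The groups were apart at both weeks, at 1 week by a margin of less than 1 FPKM, and the cultured libraries of 2 weeks stood above all others. The log2 fold change was -0.75 (95% confidence interval -1.70 to 0.20, limma adjusted p = 0.176) at 1 week and -3.30 (-4.25 to -2.35, adjusted p = 0.000576) at 2 weeks, a level 9.85-fold higher *in vitro*. The macrophage and monocyte sum was 1.88-fold higher *in vitro* at 1 week and 2.52-fold at 2 weeks, a sum in which *Lyz2* (lysozyme) alone read at 1 week 3794 ± 311 FPKM in culture and 1392 ± 86.4 in the heart (SD, n = 2). The 15 genes had median log2 fold changes of -0.35 and -1.04 at the respective weeks, and the part of these markers in the result was not tested.

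*Il1b* (ENSMUSG00000027398, chromosome 2, 129364570 to 129371139) encodes the secreted IL-1β and lies beside *Il1a* (ENSMUSG00000027399, chromosome 2, 129299610 to 129309972), whose product IL-1α can signal from the cell surface. *Il1b* read 10.5 and 11.6 FPKM *in vivo* and 8.35 and 9.27 *in vitro* at 1 week, and 11.3 and 6.46 against 17.1 and 22.2 at 2 weeks. *Il1a* read 1.77 and 2.92 FPKM *in vivo* and 2.90 and 3.90 *in vitro* at 1 week, and 6.06 and 2.52 against 11.8 and 27.0 at 2 weeks. For both ligands the highest 2 libraries were the cultured ones of 2 weeks, and only the *Il1a* groups of 1 week overlapped. *Il1b* was lower *in vivo* at 2 weeks, with a log2 difference of -1.18 (SE 0.25, limma adjusted p = 0.00739), and at 1 week the difference was 0.33 (95% confidence interval -0.27 to 0.93). The call of *Il1b* was lost without any 1 of 7 libraries, all but replicate 1 of the *in vivo* samples at 2 weeks, and with adjusted p-values between 0.000442 and 0.0496 over 17 alternatives it lay close to the threshold. *Il1a* differed by -2.16 (SE 0.52) at 2 weeks with an adjusted p of 0.0119, and by -0.54 (95% confidence interval -1.77 to 0.68) at 1 week. Here the 2 cultured libraries of 2 weeks differed from each other by more than the cultured libraries of 1 week did, with 19.4 ± 10.8 against 3.40 ± 0.71 FPKM (SD, n = 2).

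*Il33* (ENSMUSG00000024810, chromosome 19, 29925114 to 29960718), whose product is kept in the nucleus of stromal and endothelial cells until damage sets it free, ran the other way. It read 45.5 and 42.3 FPKM *in vivo* and 7.83 and 7.35 *in vitro* at 1 week, and 46.0 and 44.3 against 12.8 and 12.2 at 2 weeks. Replicates lay close together and the groups were far apart at both weeks. *Il33* was higher *in vivo* by 2.52 log2 units (SE 0.07, limma adjusted p = 1.14e-06) at 1 week, or 5.72-fold, and by 1.85 (SE 0.07, adjusted p = 3.21e-06) at 2 weeks, or 3.60-fold. The call held at both weeks in all 17 alternatives. The fibroblast marker sum was 3.99-fold and 5.02-fold higher *in vivo* at the same weeks, and the endothelial sum 3.81-fold and 1.57-fold. Of the 10 fibroblast markers 6 were higher *in vivo* and 0 lower at each week, with medians of 1.29 and 1.71 log2 units, and *Col1a1* alone read 4420 ± 408 FPKM *in vivo* against 857 ± 7.67 *in vitro* at 1 week. At that week 8 of the 10 log2 differences were positive and 2 were negative, those of *Pdgfrb* (-0.10) and *Thy1* (-0.75). *Thy1* passed the adjusted p (limma adjusted p = 0.00191) and not the fold threshold. The part of both marker lists in the result was not tested.

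The antagonist *Il1rn* (ENSMUSG00000026981, chromosome 2, 24336853 to 24351494) encodes IL-1Ra, which occupies the IL-1 receptor without signalling. It read 3.80 and 6.28 FPKM *in vivo* and 5.14 and 6.99 *in vitro* at 1 week, where the groups overlapped. At 2 weeks it read 4.03 and 1.77 *in vivo* and 9.73 and 16.1 *in vitro*, with no overlap. The log2 difference was -2.18 (SE 0.43, limma adjusted p = 0.00545) at 2 weeks and -0.29 (95% confidence interval -1.32 to 0.74) at 1 week. Leaving out either *in vitro* replicate of either week, or replicate 2 of the *in vivo* samples at 2 weeks, ended the call of 2 weeks, with adjusted p-values up to 0.0379. The ratio of *Il1rn* to the sum of *Il1a* and *Il1b* was 0.309 and 0.432 *in vivo* against 0.457 and 0.531 *in vitro* at 1 week, and 0.232 and 0.197 against 0.337 and 0.326 at 2 weeks. By FPKM the antagonist was thus below the summed agonists in every library. That order depends on the gene lengths used, 5535 bases for *Il1rn*, 1974 for *Il1a* and 1907 for *Il1b*. In fragments, replicate 2 of the *in vivo* samples at 1 week had 453 on *Il1rn*, 75 on *Il1a* and 289 on *Il1b*. The ratio was lower in each *in vivo* library than in the *in vitro* libraries of that week.

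The receptor *Il1r1* (ENSMUSG00000026072, chromosome 1, 40225080 to 40317257), through which both IL-1α and IL-1β signal, read 35.9 and 39.4 FPKM *in vivo* and 22.6 and 22.8 *in vitro* at 1 week. At 2 weeks it read 29.6 and 26.8 *in vivo* and 21.5 and 21.6 *in vitro*. All 4 *in vivo* libraries lay above all 4 *in vitro* libraries. The difference of 0.73 log2 units (SE 0.07, limma adjusted p = 0.000303) at 1 week and 0.39 (SE 0.07, adjusted p = 0.00427) at 2 weeks passed the adjusted p and not the fold threshold. Without the scaling between libraries the difference at 2 weeks was 0.05.

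The feedback inhibitors stood on the side of *Il33* at 1 week. *Nfkbia* (ENSMUSG00000021025, chromosome 12, 55489410 to 55492647) encodes IkBα, the inhibitor that NF-kB itself induces, and was the most abundant of the 10 genes in 6 of the 8 libraries. It read 501 and 536 FPKM *in vivo* and 116 and 133 *in vitro* at 1 week, and 521 and 406 against 255 and 296 at 2 weeks. No *in vitro* library reached the *in vivo* levels. *Nfkbia* was higher *in vivo* at 1 week by 2.06 log2 units (SE 0.14, limma adjusted p = 5.17e-05), or 4.18-fold, in all 17 alternatives. At 2 weeks the difference was 0.74 (95% confidence interval 0.42 to 1.07, adjusted p = 0.00406), under the fold threshold.

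*Tnfaip3* (ENSMUSG00000019850, chromosome 10, 19000910 to 19015657) encodes A20, a ubiquitin-editing enzyme that shuts down signalling from the TNF receptor and IL-1 receptor. It read 67.6 and 97.8 FPKM *in vivo* and 19.9 and 24.5 *in vitro* at 1 week, and 60.9 and 34.5 against 27.4 and 34.3 at 2 weeks. The groups were well apart at 1 week and nearly touched at 2 weeks. *Tnfaip3* was higher *in vivo* at 1 week by 1.88 log2 units (SE 0.29, limma adjusted p = 0.00234), or 3.67-fold, and the difference at 2 weeks was 0.58 (95% confidence interval -0.11 to 1.27). The call of 1 week was lost without replicate 2 of the *in vivo* samples or either replicate of the *in vitro* samples of that week, at log2 differences of 1.61, 1.73 and 2.03 and adjusted p-values of 0.0171, 0.0184 and 0.0108.

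The promoters of the 2 inhibitors are shown because both genes were higher *in vivo* at 1 week and both hold a match to the kB consensus, the binding motif of NF-kB, close to the start site, and that of *Tnf* because it was the lowest of the 10 genes *in vivo* relative to *in vitro* at 2 weeks. The windows run from 250 bases before to 50 bases after the start in RefSeq (GRCm38.p6), read 5′ to 3′ on the gene's strand, with each kB consensus match, found on either strand, in capitals.
Nfkbia, chr12:55492598-55492897, minus strand: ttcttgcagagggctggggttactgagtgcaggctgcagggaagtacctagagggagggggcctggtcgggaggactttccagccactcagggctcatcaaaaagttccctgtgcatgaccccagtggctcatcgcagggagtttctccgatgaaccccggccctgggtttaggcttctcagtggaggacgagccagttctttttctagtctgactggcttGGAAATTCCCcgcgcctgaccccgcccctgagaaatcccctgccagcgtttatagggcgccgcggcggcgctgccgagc
Tnfaip3, chr10:19015361-19015660, minus strand: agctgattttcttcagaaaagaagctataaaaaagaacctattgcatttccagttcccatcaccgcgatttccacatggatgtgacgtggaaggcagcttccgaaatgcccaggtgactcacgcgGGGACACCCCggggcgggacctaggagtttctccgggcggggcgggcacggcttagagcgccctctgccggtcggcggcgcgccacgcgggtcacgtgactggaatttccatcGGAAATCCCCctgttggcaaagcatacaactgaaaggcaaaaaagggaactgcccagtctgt
Tnf, chr17:35201958-35202257, minus strand: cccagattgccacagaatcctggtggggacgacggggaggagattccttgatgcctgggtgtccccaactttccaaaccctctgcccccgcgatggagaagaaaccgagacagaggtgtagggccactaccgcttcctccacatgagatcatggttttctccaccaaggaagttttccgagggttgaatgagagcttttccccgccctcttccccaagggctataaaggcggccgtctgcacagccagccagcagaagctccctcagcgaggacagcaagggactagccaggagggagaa

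The capitals begin 29 bases before the start in *Nfkbia* and 125 and 12 bases before it in *Tnfaip3*. RefSeq windows were matched for all 10 genes, 15 windows in all. The kB consensus was found in 3 of these 15 windows, against 4.51% of all 32851 mouse windows. The 3 windows belong to *Nfkbia*, *Tnfaip3* and *Il1r1*. A second form of the kB motif, held by 1.63% of all mouse windows, was also sought. It matched 29 bases before the start in *Nfkbia* and 12 bases before it in *Tnfaip3*, at the places in capitals. It also matched in *Il1rn*, which lacks the consensus and was lower *in vivo* at 2 weeks. These are matches of letters in a short window, and the *Tnf* window holds neither form of the motif.

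Among the effectors, *Ptgs2* (ENSMUSG00000032487, chromosome 1, 150100031 to 150108227) encodes COX-2, the inducible enzyme of prostaglandin synthesis. It read 97.3 and 87.2 FPKM *in vivo* and 28.9 and 30.0 *in vitro* at 1 week, and 51.0 and 32.9 against 33.7 and 36.9 at 2 weeks. The groups were apart at 1 week and overlapped at 2 weeks. *Ptgs2* was higher *in vivo* at 1 week by 1.64 log2 units (SE 0.19, limma adjusted p = 0.000536), or 3.12-fold, in all 17 alternatives. At 2 weeks the difference was 0.22 (95% confidence interval -0.23 to 0.66), and it turned to -0.12 without the scaling and to -0.10 without replicate 1 of the *in vivo* samples of 2 weeks.

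*Icam1* (ENSMUSG00000037405, chromosome 9, 21015985 to 21028817) encodes an adhesion molecule that binds leukocyte integrins. It read 33.2 and 37.2 FPKM *in vivo* and 17.4 and 20.4 *in vitro* at 1 week, and 41.3 and 40.4 against 38.3 and 48.9 at 2 weeks. The groups were apart at 1 week, and at 2 weeks the *in vivo* values lay between the *in vitro* ones. The difference of 0.90 log2 units (SE 0.13, limma adjusted p = 0.00173) at 1 week passed the adjusted p and not the fold threshold, and at 2 weeks it was -0.08 (95% confidence interval -0.40 to 0.23).

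**Figure D3:**
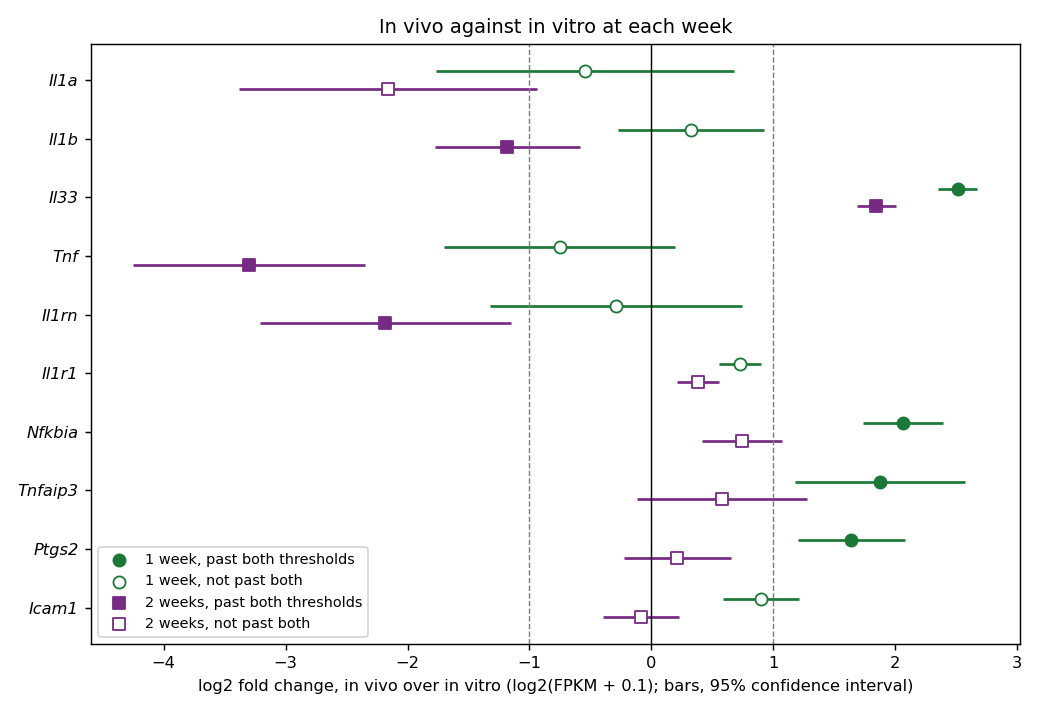
Log2 fold change, *in vivo* over *in vitro*, of the 10 genes at 1 week (green circles) and 2 weeks (purple squares), with 95% confidence intervals from limma; filled symbols passed both thresholds and dashed lines mark a 2-fold change. Each gene's value at 2 weeks lies to the left of its value at 1 week.

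An interaction contrast tested whether the gap between the settings changed from 1 week to 2 weeks. The change was negative for all 10 genes, with a median of -1.37 log2 units against -0.0085 for all tested genes. None of the 10 passed both thresholds in limma, where 1.73% of all tested genes did. At an unadjusted p under 0.05 there were 9 of the 10, against 26.9% of all tested genes, and limma voom on the fragments recovered from the FPKM called 4, against 3.01%, namely *Il1b*, *Tnf*, *Nfkbia* and *Ptgs2*. The largest change was that of *Tnf*, -2.55 (SE 0.57, adjusted p = 0.0382). *Nfkbia* changed by -1.32 (SE 0.20) with an adjusted p of 0.0109. *Il33* had an adjusted p of 0.00964 at a change of -0.67, under the fold threshold.

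The comparisons within each setting share their libraries with those above, so their values are given side by side and not as further evidence. Within the *in vitro* samples 2 of the 10 genes rose from 1 week to 2 weeks and 0 fell, against 2.76% and 1.05% of all tested genes, 3.81% together. These were *Icam1* by 1.20 log2 units (SE 0.13, limma adjusted p = 0.00161) and *Nfkbia* by 1.15 (SE 0.14, adjusted p = 0.00231). *Icam1* lost the call without replicate 1 of 1 week (adjusted p = 0.0130), and *Nfkbia* lost it without any 1 of the 4 *in vitro* libraries (adjusted p up to 0.0207). *Tnf* differed by 2.15 (SE 0.40, adjusted p = 0.0106), *Il1a* by 2.37 (adjusted p = 0.0179) and *Il1b* by 1.14 (adjusted p = 0.0189), short of the threshold. *Il33* differed by 0.71 with an adjusted p of 0.000976, under the fold threshold.

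Within the *in vivo* samples 1 of the 10 genes fell and 0 rose, against 0.949% and 1.23% of all tested genes, 2.18% together. *Ptgs2* fell by 1.17 log2 units (SE 0.19, limma adjusted p = 0.00954). It kept the call in 5 of 17 alternatives, and among the libraries left out in turn only the omission of replicate 1 of 2 weeks kept it. *Tnf* differed by -0.40 (95% confidence interval -1.35 to 0.55) and *Nfkbia* by -0.17 (-0.50 to 0.16). *Il33* differed by 0.04 (-0.12 to 0.20).

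The order of the levels differed between the groups. By mean FPKM *Nfkbia* was first in 3 groups, at 519 ± 25.1 and 464 ± 81.4 FPKM in the heart (SD, n = 2) and at 124 ± 12.2 in the culture of 1 week. In the *in vitro* samples of 2 weeks *Tnf* was first, at 375 ± 79.2, and *Nfkbia* second, at 275 ± 28.6, with no overlap between their libraries. *Tnf* ranked 4 in the heart at 1 week and 6 at 2 weeks, and 2 in the culture of 1 week. *In vivo* at 1 week *Ptgs2*, *Tnfaip3*, *Tnf* and *Il33* followed *Nfkbia*, and each overlapped its neighbour in this run. *In vivo* at 2 weeks *Tnfaip3*, *Il33*, *Ptgs2*, *Icam1* and *Tnf* likewise formed a run of overlapping neighbours between 38.2 and 47.7 FPKM. *Il33* ranked 8 of 10 *in vitro* at 1 week and last at 2 weeks, at 12.5 ± 0.40. The lowest gene was *Il1a* in both groups of 1 week, and *Il1rn* *in vivo* at 2 weeks, where it overlapped *Il1a*. The ratio of *Nfkbia* to *Tnf* was 15.9 and 6.93 *in vivo* and 1.48 and 1.49 *in vitro* at 1 week. At 2 weeks it was 11.5 and 13.0 against 0.800 and 0.686, so every *in vivo* library had the higher ratio. The product of *Nfkbia* inhibits NF-kB and not the ligand, and in these bulk samples the RNAs of both genes may come from different cells. The ratio therefore does not measure the activity of the pathway.

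Other genes of the pathway were counted over lists of ligands, receptors, signalling proteins, inhibitors and induced genes, 126 in the table and 113 tested. At 1 week 16 of the 113 were higher *in vivo* (14.2%, against 7.79% of all tested genes) and 7 lower (6.19%, against 5.07%), with a median log2 fold change of 0.06. The counts of 2 weeks were 11 higher (9.73%, against 9.02%) and 12 lower (10.6%, against 8.05%), with a median of -0.13. None of the 5 genes of the IKK list, which also holds the IKK-related kinases *Tbk1* and *Ikbke*, changed at either week by both thresholds. All 5 differences were negative at each week, with medians of -0.64 and -0.29 log2 units. At an unadjusted p under 0.05 there were 4 of these 5 at each week, where all tested genes gave 50.6% and 56.4%. Of the 5 NF-kB subunits, 1 changed, *Nfkb1* (p105/p50), which was higher *in vivo* at 1 week by 1.07 log2 units (SE 0.09, limma adjusted p = 0.000165) and read 18.4 ± 0.36 against 8.70 ± 0.47 FPKM. Without the scaling between libraries this was 0.73, under the fold threshold. *Nfkbid*, an atypical nuclear IkB, was lower *in vivo* at both weeks, by -1.14 (SE 0.17) and -2.51 (SE 0.17), the opposite direction to *Nfkbia* at 1 week. The call of 1 week was lost without replicate 1 of the *in vivo* samples or replicate 2 of the *in vitro* samples of that week.

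Of the other IL-1 family genes, 13 listed and 6 tested, *Il1r2*, the decoy receptor that binds IL-1 without signalling, was higher *in vivo* at 1 week by 3.08 log2 units (SE 0.39, limma adjusted p = 0.000905). It read 1.31 ± 0.20 FPKM *in vivo* and 0.0686 ± 0.0474 *in vitro*, the latter from 1 to 3 fragments per library, a ratio of fragments of 19.0 (95% counting interval 7.06 to 71.9). Leaving out replicate 2 of the *in vivo* samples of that week gave an adjusted p of 0.0108. *Il18*, an inflammasome-processed cytokine, was lower *in vivo* at both weeks, by -1.46 (SE 0.29, adjusted p = 0.00683) and -2.23 (SE 0.29, adjusted p = 0.000835). Its call of 1 week was lost in 8 of 17 alternatives, among them the omission of either *in vitro* library of either week or of replicate 2 of the *in vivo* samples of 1 week.

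Further named genes were higher *in vivo*. *Hp* (haptoglobin) was higher by 5.07 log2 units (SE 0.30) at 1 week and 4.25 (SE 0.30) at 2 weeks, with limma adjusted p-values of 2.85e-05 and 4.69e-05. *Lcn2* (lipocalin 2), which binds siderophores, was higher by 3.81 (SE 0.54) and 3.71 (SE 0.54). It had 0 to 5 fragments per *in vitro* library and a ratio of fragments at 1 week of 71.1 (95% counting interval 19.2 to 594). Its call at 1 week was lost at a pseudocount of 1 and without replicate 2 of either setting of that week. *Selp* (P-selectin) was higher by 3.37 (SE 0.31) and 2.03 (SE 0.31), the latter call lost without replicate 1 of the *in vivo* samples. *Saa3*, a serum amyloid A gene, read 65.9 and 26.4 FPKM *in vivo* and 2.11 and 2.54 *in vitro* at 2 weeks and was higher by 4.11 (SE 0.43). *Dusp1*, a phosphatase that shuts off MAP kinases, was higher by 1.98 and 2.50 (SE 0.11 each). *Csf2* (GM-CSF) was higher at 1 week by 3.79 (SE 0.64, adjusted p = 0.00337), from 22 to 27 fragments per library *in vivo* and 0 to 3 *in vitro* (ratio 20.03, counting interval 6.46 to 100.5), and stood at -1.88 at 2 weeks with an adjusted p of 0.0459. The call of *Csf2* was lost in 5 of 17 alternatives, among them the omission of either *in vivo* library or replicate 2 of the *in vitro* samples of 1 week.

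Several named genes were lower *in vivo*. *Hpgd*, the enzyme that inactivates prostaglandins, was lower by -2.26 (SE 0.12) and -3.08 (SE 0.12), with limma adjusted p-values of 1.71e-05 and 3.64e-06. It read 3.30 and 3.06 FPKM *in vivo* and 14.1 and 17.2 *in vitro* at 1 week. *Mmp13* (collagenase 3) was lower by -1.88 (SE 0.36) and -3.52 (SE 0.36), the first call lost in 7 of 17 alternatives, among them the omission of any 1 of the 4 libraries of 1 week. *Mmp3* (stromelysin 1) was lower at 1 week by -1.61 (SE 0.18), and *Plau* (urokinase) at 2 weeks by -3.08 (SE 0.18). *Tnfaip2*, a TNF-induced gene, was lower at both weeks, by -1.45 and -2.11 (SE 0.10 each). Among the 10 tested prostaglandin enzymes and receptors 2 were lower at either week, while none was higher at 1 week and 1 was at 2 weeks, with medians of -0.01 and -0.06 log2 units. Among the 9 tested adhesion molecules and integrins 4 were higher at 1 week, 2 were at 2 weeks and none was lower, with medians of -0.43 and 0.11. The shares of all tested genes are the same as those given above for the pathway.

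Since the host mice received methylprednisolone, 8 genes of the glucocorticoid response were read beside these results, among them *Nr3c1*, which encodes the glucocorticoid receptor. At each week 3 of the 8 were higher *in vivo* (37.5%, against 7.79% and 9.02% of all tested genes) and 0 were lower. The median log2 fold changes were 0.93 and 0.78, with 2 negative values at each week. Those of 1 week were *Klf9* (-0.73, limma adjusted p = 0.000164) and *Nr3c1* (-0.33, adjusted p = 0.00459), under the fold threshold. At 2 weeks *Klf9* read 47.9 ± 0.95 FPKM *in vivo* and 63.6 ± 1.64 *in vitro*, and *Per1* 23.0 ± 0.84 and 33.7 ± 2.21 (SD, n = 2). *Fkbp5*, a co-chaperone of the glucocorticoid receptor, was higher by 1.97 (SE 0.17) and 2.69 (SE 0.17) log2 units, with limma adjusted p-values of 0.000167 and 3.28e-05. *Tsc22d3*, which encodes GILZ, an inhibitor of NF-kB, was higher by 1.01 (SE 0.09) and 1.24 (SE 0.09), and without the scaling by 0.67 and 0.91, under the fold threshold. Its call of 1 week was lost in 4 of 17 alternatives, among them the omission of replicate 1 of the *in vivo* samples or replicate 2 of the *in vitro* samples of that week. *Errfi1*, a feedback inhibitor of the EGF receptor, was higher at 1 week by 1.90 (SE 0.10), and *Sgk1*, a kinase, at 2 weeks by 1.09 (SE 0.09), the latter lost without the scaling and without replicate 1 of the *in vivo* samples of 2 weeks. The part of the glucocorticoid in the results above was not tested.

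**Figure D4:**
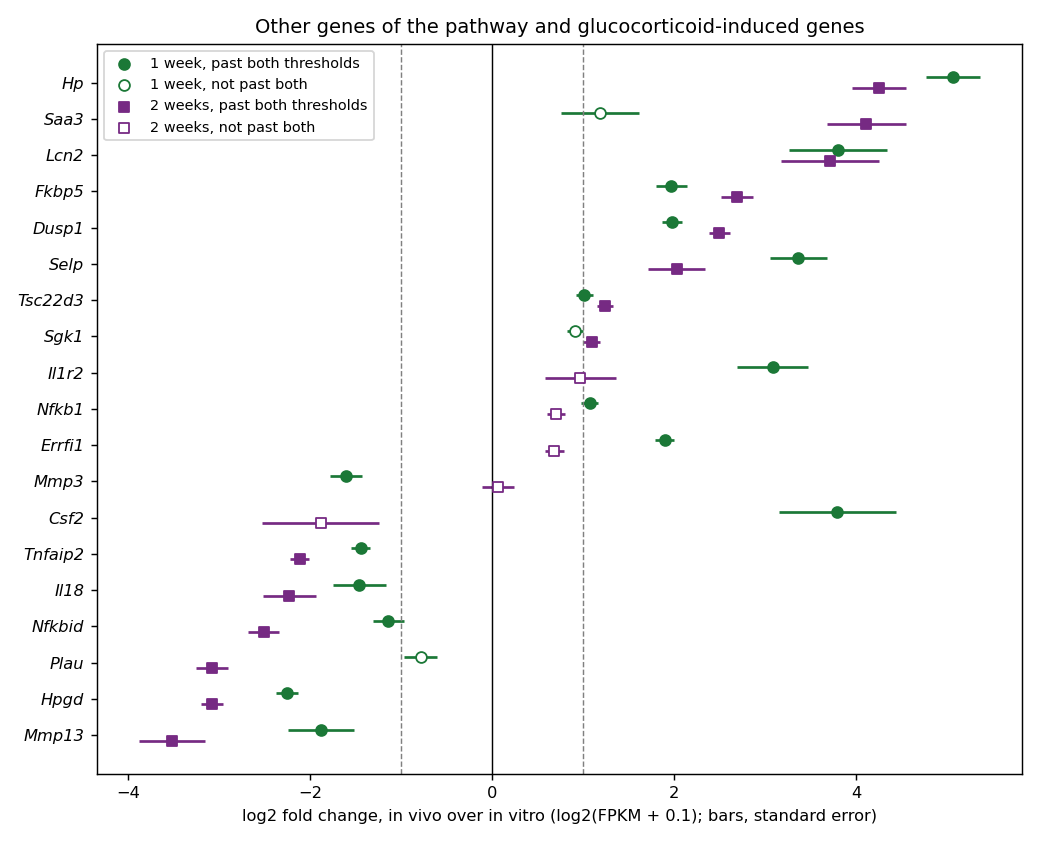
Log2 fold change, *in vivo* over *in vitro*, with standard errors from limma, of the named genes of the wider pathway and of the glucocorticoid list at 1 week (green circles) and 2 weeks (purple squares), ordered by the value at 2 weeks; filled symbols passed both thresholds and dashed lines mark a 2-fold change. *Hp*, *Lcn2* and *Selp* lie on the right at both weeks and *Hpgd*, *Mmp13* and *Nfkbid* on the left, while *Csf2* reads 3.79 at 1 week and -1.88 at 2 weeks.

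Genes with the pattern most like that of a changed gene were sought over the 8 libraries among 13104 protein-coding genes, by the root mean square difference of log2(FPKM + 0.1) after centring each gene on its mean. The nearest to *Tnf* was *Ccl3*, a macrophage chemokine, at 0.25 log2 units, with 58.2 to 136 FPKM *in vivo* and 188 to 913 *in vitro*, followed by *Epor*, the erythropoietin receptor, at 0.31. The nearest to *Il1b* were *Ccrl2* at 0.12 and *Phlda1* at 0.14, and to *Il1rn* the gene model *Gm6377* at 0.30 and *Nlrp3*, the inflammasome sensor, at 0.33. *Tnfrsf25*, which encodes a TNF receptor family member, and *Abtb2* were nearest to *Il33*, at 0.14 and 0.15. For *Nfkbia* they were *Ephb6* at 0.13 and *Ndrg1* at 0.14, and for *Tnfaip3* *Foxf2* at 0.24 and *Clec4a3* at 0.25. *Mmp14* at 0.16 and *Ctss* at 0.18 were nearest to *Ptgs2*, and *Ier3* at 0.09 and *Klf10* at 0.13 to *Icam1*. These are descriptions over 8 libraries in 4 groups, chosen as the smallest of many distances.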

How the data were processed

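RNA from eGFP+ cells was made into mRNA libraries and sequenced by a provider, and the authors deposited FPKM for 54532 genes in 8 libraries. The submitters' processing notes name CASAVA, HISAT2 2.0.5 and mm10, and the counting tool and annotation are not given in the sources used here. FPKM times gene length gave whole fragments for 100% of values (tolerance 0.05), and the library size behind the FPKM was not the fragments counted on genes, so a scaling between libraries is included. Coordinates are on GRCm38, where 98.3% of the 54495 identifiers shared with GENCODE vM21 have the same start and end.

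Genes that reached 0.5 FPKM in 2 or more libraries were compared on log2(FPKM + 0.1) with limma 3.58.1 in R 4.3.3, with 4 groups sharing 1 trended variance and Benjamini-Hochberg adjustment over 15708 genes. Thresholds were an adjusted p of 0.01 and a log2 fold change of 1. The procedure was tested on simulated data. Replicate libraries were further apart than counting error alone (chi-square per gene 4.50 to 9.93). Counting intervals are exact, from fragments per library size, and cover counting error only, since PCR copies are not separate molecules. The alternatives were other pseudocounts (1 and 0.01), filters and scalings, no variance trend, a replicate block, limma voom on recovered fragments, only the groups compared, and each of the 8 libraries left out. The 10 genes and all lists were chosen with earlier results of these data known. Named besides them are the 5 pathway genes with the largest change per week and direction, all changed genes of the NF-kB subunit, IkB, IKK and IL-1 family lists, changed glucocorticoid-induced genes, and the 2 nearest patterns. *Tnfaip6* is given in addition, beside *Tnfaip2*. Figures were drawn with matplotlib 3.10.9.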

Additional observations from a re-analysis of the deposited data

Results flagged for a closer look

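For 2 of the named genes outside the 10, the gap between the settings was not the same at 1 week and 2 weeks, by limma's interaction contrast with both thresholds. *Plau* changed by -2.29 log2 units (SE 0.25, adjusted p = 0.00516), from -0.79 at 1 week to -3.08 at 2 weeks, and *Errfi1* by -1.22 (SE 0.15, adjusted p = 0.00623), from 1.90 to 0.68.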

How the results depend on the processing

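The call of *Il33* at both weeks, of *Nfkbia* and *Ptgs2* at 1 week and of *Tnf* at 2 weeks held in all 17 alternatives. The number of the 10 genes changed at 1 week held at 4 but for 3 to 4 with a library left out. At 2 weeks it went from 4 to 2 with no filter, with no variance trend, with the replicate block and with only the groups compared, and ran from 2 to 5 with a library left out. For the change between weeks it went from 0 to 1 at a pseudocount of 1, at a filter of 1 FPKM and without the scaling, to 4 with limma voom, and ran from 0 to 2 with a library left out. Within the *in vivo* samples it went from 1 to 0 at a pseudocount of 0.01, with no filter, with no variance trend, with the replicate block and with only the groups compared, and ran from 0 to 1 with a library left out. Within the *in vitro* samples it went from 2 to 1 with no variance trend, to 5 with limma voom and to 4 with only the groups compared, and ran from 0 to 3 with a library left out. The other pathway genes ran from 15 to 25 at 1 week (main count 23) and from 18 to 23 at 2 weeks with a library left out, the 15 without replicate 2 of the *in vivo* samples of 1 week. The causes were not tested.

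Directions turned only for differences that missed the threshold. Without the scaling these were *Il1b* at 1 week (-0.011), *Ptgs2* at 2 weeks (-0.12) and *Mmp3* at 2 weeks (-0.27). With a library left out, *Il1rn* at 1 week ran from -0.65 to 0.066, and at 2 weeks *Ptgs2* from -0.10 to 0.53, *Mmp3* from -0.028 to 0.16 and *Icam1* from -0.26 to 0.091. Within the *in vivo* samples *Il33* ran from -0.011 to 0.095, *Tnf* from -1.04 to 0.25, *Il1b* from -0.77 to 0.035 and *Nfkbia* from -0.35 to 0.0082. Same-numbered replicates did not deviate together (correlation across genes -0.020 at 1 week and -0.022 at 2 weeks). These correlations cannot show whether the replicates were paired, which is not stated, and the cause of the calls lost under the block was not tested. With 2 libraries per group, and 41 fragments on *Il1a* in the shallowest case, intervals are wide.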
